A study of Mus musculus with 12 samples.

Results

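The let-7 family is the set of mature miRNAs that share the let-7 seed, here the probes mmu-let-7a, mmu-let-7b, mmu-let-7c, mmu-let-7d, mmu-let-7e, mmu-let-7f, mmu-let-7g, mmu-let-7i and mmu-miR-98. These 9 probes were taken by name from the 566 mouse miRNA probes of a NanoString nCounter panel, a hybridization assay that counts barcoded probes without amplification. All samples came from the immortalized mouse macrophage line IMM, which grows indefinitely in culture and was used 5 passages after thawing, so the results describe 1 cell line. Stimulation was with 100 ng/mL of lipopolysaccharide (LPS, a bacterial cell wall component sensed by macrophages), and its length was 30, 60 or 120 min. Samples at 0 min served as controls, and each of the 4 time points had 3 samples that the design calls biological replicates, 12 in all.

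A miRNA guides an Argonaute protein to messenger RNAs that pair with its seed, the bases near its 5′ end, and lowers their translation and stability. Let-7 miRNAs are known for restraining growth and for accumulating as cells differentiate. The protein LIN28 blocks the processing of most let-7 precursors, and let-7 targets reported in macrophages include the cytokine IL-6 and the receptor TLR4. Because the members share a seed they are expected to share many targets, so both their summed level and their makeup are of interest.

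The mature sequences show how close the members are to each other. All 9 names matched a mature miRNA in the RefSeq annotation of GRCm38.p6, with the "-5p" name of each. The sequences are given 5′ to 3′, and capitals mark the seed, bases 2 to 8.
let-7a: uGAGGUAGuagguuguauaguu
let-7c: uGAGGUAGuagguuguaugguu
let-7f: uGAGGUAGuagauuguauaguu
let-7e: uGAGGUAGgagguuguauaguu
let-7b: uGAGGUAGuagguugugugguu
let-7d: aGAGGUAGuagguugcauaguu
miR-98: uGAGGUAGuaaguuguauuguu
let-7g: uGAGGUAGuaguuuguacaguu
let-7i: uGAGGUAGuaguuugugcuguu
miR-1961: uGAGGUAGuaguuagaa

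Each member has 22 bases and the seed GAGGUAG. With positions counted from 1 at the 5′ end and the base of let-7a first, let-7c differs from let-7a by A19G, let-7f by G12A and let-7e by U9G. Let-7b carries A17G and A19G, let-7d U1A and U16C, miR-98 G11A and A19U, and let-7g G12U and U18C. Let-7i is the most distant from let-7a, with G12U, A17G, U18C and A19U. Of the other mature miRNAs with this seed in the annotation, miR-1961 had a probe on the panel. It was listed at 20, the lowest value the table gives and here called the floor, in 12 of 12 samples. Members that differ by 1 base can exchange signal through imperfect hybridization or ligation, which was not tested here.

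The family is made from 12 hairpins on 7 chromosomes. Let-7a, let-7c and let-7f each come from 2 hairpins, and the other 6 members from 1. Mirlet7d (chromosome 13, 48536012 to 48536114), Mirlet7f-1 (48537829 to 48537917) and Mirlet7a-1 (48538179 to 48538272) lie next to each other on the minus strand. Mirlet7c-2 (chromosome 15, 85706603 to 85706697) and Mirlet7b (85707319 to 85707403) lie within the span of the long noncoding RNA Lncppara. Mirlet7f-2 (chromosome X, 151912346 to 151912428) and Mir98 (151913214 to 151913321) lie within Huwe1, which encodes a ubiquitin ligase. Mirlet7g (chromosome 9, 106178840 to 106178927) lies within Wdr82, and Mirlet7a-2 (chromosome 9, 41536716 to 41536811) within Mir100hg. Mirlet7c-1 is on chromosome 16 (77599657 to 77599750), Mirlet7e on chromosome 17 (17830352 to 17830444) within Spaca6, and Mirlet7i on chromosome 10 (122985640 to 122985724). The annotation used gives gene spans, so exons and introns were not told apart.

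Depth ran from 114754 to 313170 miRNA counts per sample. The lowest was 0 min replicate 1, where 1 count stood for 2.26 signal units, against at most 1.31 in any other sample. That library also had the lowest share of let-7a within the family, and results are given with and without it where it matters. The ligation controls, added RNAs that report on the probe ligation step, came to 142, 278 and 293 per 1000 positive control counts at 0 min and to between 384 and 529 in the stimulated samples. Scaling to these controls in place of the deposited scale gave 8, 6 and 4 of the 9 members lower at 30, 60 and 120 min (limma, adjusted p under 0.05), against 47.6%, 37.3% and 28.9% of all tested miRNAs. The 4 blood-lineage markers (miR-142-3p, miR-142-5p, miR-223 and miR-146a) were above the floor in all 12 samples. Of 10 markers of other cells, miR-122 (liver), miR-1 (muscle), miR-141 (epithelium) and miR-451 (red cells) were at the floor in 12 of 12 samples. The epithelial miR-200a was at the floor in 10 of 12 samples, miR-133a (muscle) in 8 and miR-124 (neurons) in 3. The epithelial miR-200b and miR-200c were at the floor in 2 of 12 each, with means of 30.6 ± 9.03 and 30.6 ± 10.2. The highest was miR-126-3p, an endothelial miRNA, with a mean signal of 169.8 ± 56.4 (SD, n = 12). That was above the blood-lineage miR-142-5p, with 109.3 ± 33.7. The summed signal of the 10 markers of other cells ran from 347.7 to 552 at 0 min and 361.5 to 390.4 at 30 min. It ran from 297 to 406 at 60 min and from 307 to 468 at 120 min.

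Every member was measured above the floor in every sample, and all 9 passed the filter on low signal that kept 166 miRNAs for testing. Let-7g was the most abundant member, with a mean signal of 13823 ± 3865 (SD, n = 12), followed by let-7a with 12657 ± 3785. Let-7i (8308 ± 2395) and let-7d (7854 ± 2470) came next, and these 4 held 80.8% ± 1.63 of the family's signal. The same 4 led in 12 of 12 samples. Let-7b (3182 ± 985), let-7f (3135 ± 1073) and let-7c (2611 ± 784) formed a middle tier. MiR-98 (949 ± 313) and let-7e (279 ± 97.4) were the lowest. Levels of different probes are compared here as signal, which can also depend on how well each probe ligates and hybridizes.

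Some neighbours in this order were not separated. Let-7g exceeded let-7a in 8 of 12 samples, namely in 3 of 3 at 0 min and at 30 min and in 1 of 3 at 60 min and at 120 min. Let-7b exceeded let-7f in 8 of 12 samples, with the same split between times. Let-7i exceeded let-7d in 10 of 12 samples and let-7f exceeded let-7c in 11 of 12. The other neighbours (let-7a over let-7i, let-7d over let-7b, let-7c over miR-98, miR-98 over let-7e) kept their order in 12 of 12 samples. Counting error was at most 7.83% for the lowest let-7e value of 163 counts and at most 2.87% for the 7 most abundant members. PCR is not part of this assay, and these figures cover counting error only.

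Together the 9 members held 24.4% ± 1.90 (SD, n = 12) of the summed mouse miRNA signal. The family's share of summed mouse miRNA signal was 26.2%, 28.4% and 23.7% in the 0 min samples, 23.9%, 23.8% and 22.02% at 30 min, 24.2%, 21.99% and 22.6% at 60 min, and 24.5%, 25.5% and 26.2% at 120 min. The means were 26.1% ± 2.35, 23.3% ± 1.07, 22.9% ± 1.15 and 25.4% ± 0.871 (SD, n = 3 each). The share at 30 and 60 min was lower than at 0 min by 2.85 and 3.16 percentage points, a little more than the 0 min SD of 2.35. The 0 min samples ran from 23.7% to 28.4%, a range wider than either difference. The 0 and 30 min samples overlapped, and so did the 0 and 60 min samples. No test was made of this summed share. Taken singly, let-7d, let-7g, let-7i and miR-98 had shares of the summed miRNA signal wholly below 0 min at 30 min, which is 4 of 9 members against 13.9% of all tested miRNAs. At 60 min let-7b joined these, giving 5 of 9 against 14.5%, and at 120 min let-7b, let-7d and let-7g lay wholly below, 3 of 9 against 22.3%. No member's share lay wholly above 0 min at any of these times. Of all tested miRNAs, 21.7%, 25.3% and 27.1% did so at 30, 60 and 120 min. The summed family signal itself was 49141 ± 19374 at 0 min, 48077 ± 6977 at 30 min, 50656 ± 10625 at 60 min and 63318 ± 19256 at 120 min.

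**Figure D1:**
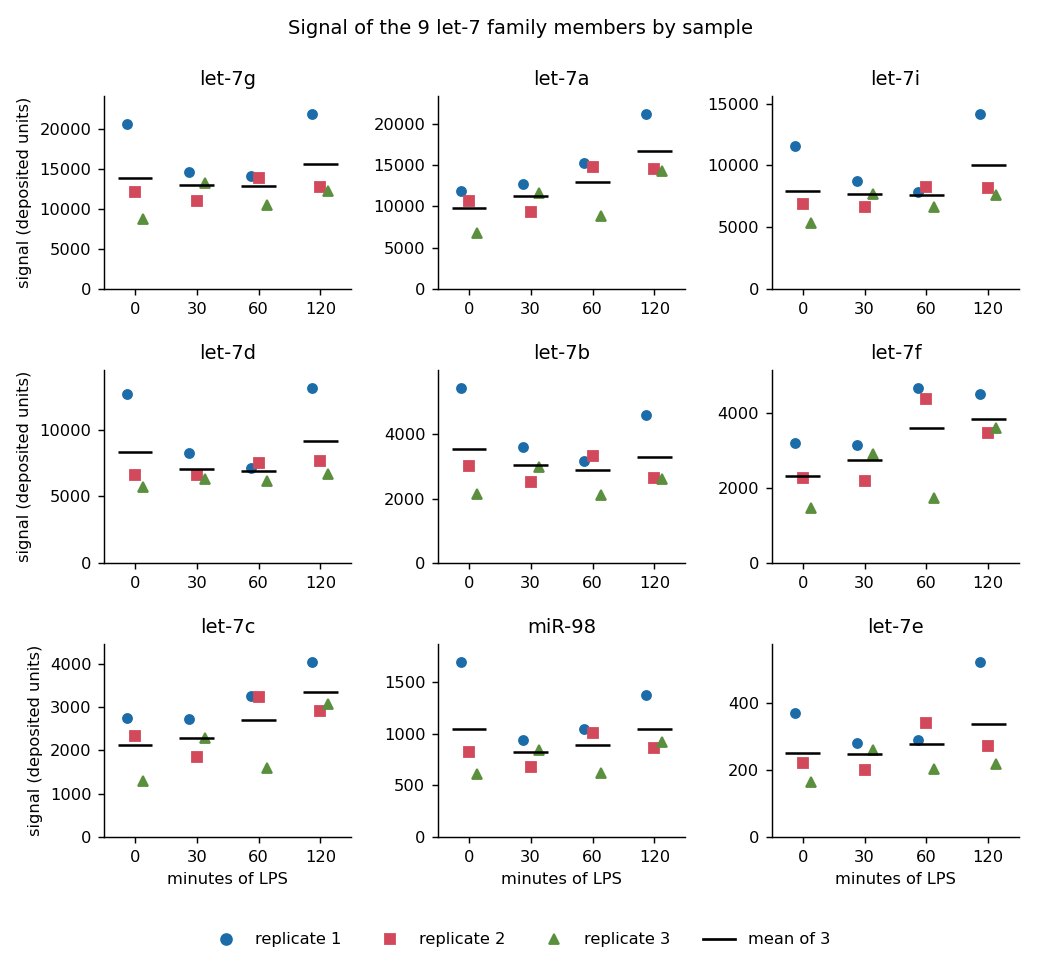
Deposited signal (y axis, linear, starting at 0) of each let-7 family member by minutes of LPS (x axis), with 1 symbol per sample, replicates told apart by colour and shape, and a bar at the mean of 3. The 120 min samples of let-7a, let-7c and let-7f all lie above their 0 min samples, whereas let-7b, let-7d and let-7g overlap with 0 min.

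The first question was whether any member changed in level after LPS. On the deposited scale, where 4 housekeeping mRNAs have the same geometric mean in every sample, let-7a had signals of 11827, 10702 and 6749 at 0 min, 12709, 9338 and 11609 at 30 min, 15243, 14833 and 8787 at 60 min, and 21220, 14569 and 14298 at 120 min. All 3 samples at 120 min lay above all 3 at 0 min, while the 30 and 60 min samples overlapped with 0 min. Let-7f had 3197, 2280 and 1467 at 0 min and 4521, 3468 and 3603 at 120 min, again without overlap.

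Let-7c had 2751, 2338 and 1288 at 0 min and 4047, 2916 and 3073 at 120 min, also without overlap. These were 3 of the 9 members, and 34.9% of all 166 tested miRNAs also had every 120 min sample above every 0 min sample, so the members' count was near the background. Let-7b had 5446, 3013 and 2129 at 0 min and 4599, 2646 and 2595 at 120 min, which overlapped. Let-7g had 20686, 12083 and 8802 at 0 min and 21907, 12709 and 12200 at 120 min, which overlapped as well.

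No member passed on this scale (limma, Benjamini-Hochberg over the 166 miRNAs, threshold 0.05). The count was 0 of 9 at 30 min, where 3.01% of all tested miRNAs passed, 0 of 9 at 60 min (10.8% of all) and 0 of 9 at 120 min (21.7% of all). At an unadjusted p under 0.05 the members numbered 0, 0 and 2 of 9, against 12.7%, 23.5% and 38.6% of all tested miRNAs, so their share was below the background at each time. The largest log2 changes at 120 min were 0.80 ± 0.38 (SE) for let-7f (limma adjusted p = 0.102), 0.79 ± 0.38 for let-7a (adjusted p = 0.107) and 0.71 ± 0.38 for let-7c (adjusted p = 0.15). The others were 0.41 for let-7e, 0.35 for let-7i, 0.21 for let-7g, 0.16 for let-7d, 0.11 for miR-98 and -0.05 for let-7b. The median of the 9 was 0.03, 0.01 and 0.35 at 30, 60 and 120 min, against 0.28, 0.43 and 0.57 for all tested miRNAs. Without 0 min replicate 1, let-7a, let-7c and let-7f passed as higher at 120 min, a smaller share of the 9 members than the 46.4% of all tested miRNAs that did so. Without 60 min replicate 3, let-7f passed as higher at 60 min, against 24.7% of all.

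The members' direction depended on the scaling. When each sample was divided by the geometric mean of its 100 most abundant miRNAs, 5 members were lower at 60 min and 4 at 120 min, with 0 higher, against 19.9% and 27.1% of all tested miRNAs called lower. The 5 at 60 min were let-7b, let-7d, let-7g, let-7i and miR-98, with log2 changes from -0.68 ± 0.14 for let-7b to -0.46 ± 0.14 for let-7i (limma adjusted p from 0.00368 to 0.0228). At 120 min let-7i no longer passed (-0.28 ± 0.14), and let-7b had -0.68 ± 0.14 (adjusted p = 0.00228). At 30 min 0 of 9 members and 0.602% of all tested miRNAs passed. At an unadjusted p under 0.05 there were 6 of 9 members and 33.1% of all. Let-7a, let-7c and let-7f did not pass at any time on this scale, with changes of 0.15, 0.074 and 0.16 at 120 min. Without 0 min replicate 1 the members lower were 3 at 60 min and 1, let-7b, at 120 min (-0.58 ± 0.14, adjusted p = 0.00967), against 10.2% and 19.3% of all tested miRNAs. The count of 1 of 9 at 120 min was thus below the background. The members' median on this scale was -0.32, -0.46 and -0.28 at 30, 60 and 120 min, against -0.06, -0.03 and -0.06 for all tested miRNAs.

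The second question was which members drifted apart within the family, a measure that no factor common to a whole sample can affect. Each miRNA's log2 signal was therefore taken relative to the mean log2 signal of the 9 members in the same sample. The members' spread over the 12 samples fell from between 0.37 and 0.54 log2 units (SD) to between 0.11 and 0.28 by this step. Most of their variation between samples was thus shared by the members, but this does not show that it was particular to them. The step also removes any factor common to a whole sample, and the summed mouse miRNA signal ran from 136141 to 349118.

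Let-7b showed the clearest drift. Its share of the family's signal was 7.75%, 6.71% and 6.61% at 0 min, 6.54%, 6.15% and 6.21% at 30 min, 5.59%, 5.88% and 5.54% at 60 min, and 5.38%, 4.97% and 5.07% at 120 min. Each time point lay wholly below the one before it. Relative to the family mean, let-7b was the 1 miRNA of the 166 (0.602%) with that strict order downwards over all 4 time points, and 0 of 166 had it upwards. This count is not like for like, because the members were centred on their own mean and the other miRNAs were not. The order also rests on narrow gaps. Relative to the family mean, let-7b had -0.269 in 60 min replicate 1 and -0.279 in 120 min replicate 1. Their counting errors were 1.81% and 1.54%. Between 0 and 30 min the closest values were 0.029 in 0 min replicate 2 and -0.014 in 30 min replicate 1.

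In limma let-7b fell by 0.44 ± 0.13 log2 units at 120 min relative to the family mean (adjusted p = 0.0264), with 3 of 3 samples below every 0 min sample. It was the 1 member of 9 that passed at 120 min, where 31.9% of all tested miRNAs passed in either direction and 9.04% as lower. At 60 min its difference was -0.32 ± 0.13 (adjusted p = 0.0939, and 0.0383 without 0 min replicate 3) and at 30 min -0.15 ± 0.13. Its call at 120 min ended without 0 min replicate 1 (-0.37, adjusted p = 0.0921), without 120 min replicate 2 (-0.41) or 3 (-0.43), with the family's median in place of its mean (-0.29, adjusted p = 0.349) and with no filter (-0.44, adjusted p = 0.32).

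Let-7a held 16.8%, 23.8% and 20.9% of the family's signal at 0 min, 23.1%, 22.7% and 24.1% at 30 min, 26.8%, 26.1% and 22.9% at 60 min, and 24.8%, 27.4% and 27.9% at 120 min. The 120 min samples lay above all 0 min samples, and 0 min replicate 1 was the lowest of the 12. The change against the family mean was 0.40 ± 0.15 log2 units at 120 min, which missed the threshold (limma adjusted p = 0.0588). It was 0.26 without 0 min replicate 1 (adjusted p = 0.236), 0.52 without 0 min replicate 2 (adjusted p = 0.0218) and 0.44 without 0 min replicate 3 (adjusted p = 0.0481).

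Let-7f held 4.55%, 5.08% and 4.55% of the family's signal at 0 min, 5.74%, 5.32% and 6.04% at 30 min, 8.25%, 7.75% and 4.55% at 60 min, and 5.29%, 6.51% and 7.04% at 120 min. At 60 min replicate 3 lay at the 0 min level, whereas replicates 1 and 2 were the highest of all 12 samples. The change against the family mean was 0.28 ± 0.20 at 30 min, 0.48 ± 0.20 at 60 min (adjusted p = 0.0939) and 0.41 ± 0.20 at 120 min (adjusted p = 0.113). Without 60 min replicate 3 let-7f passed at 60 min (0.71, adjusted p = 0.0108) and at 120 min (0.41, adjusted p = 0.0462). Let-7c went from 3.91%, 5.21% and 3.995% to 4.73%, 5.48% and 6.003% of the family at 120 min, which overlapped (0.32 ± 0.17, adjusted p = 0.145).

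**Figure D2:**
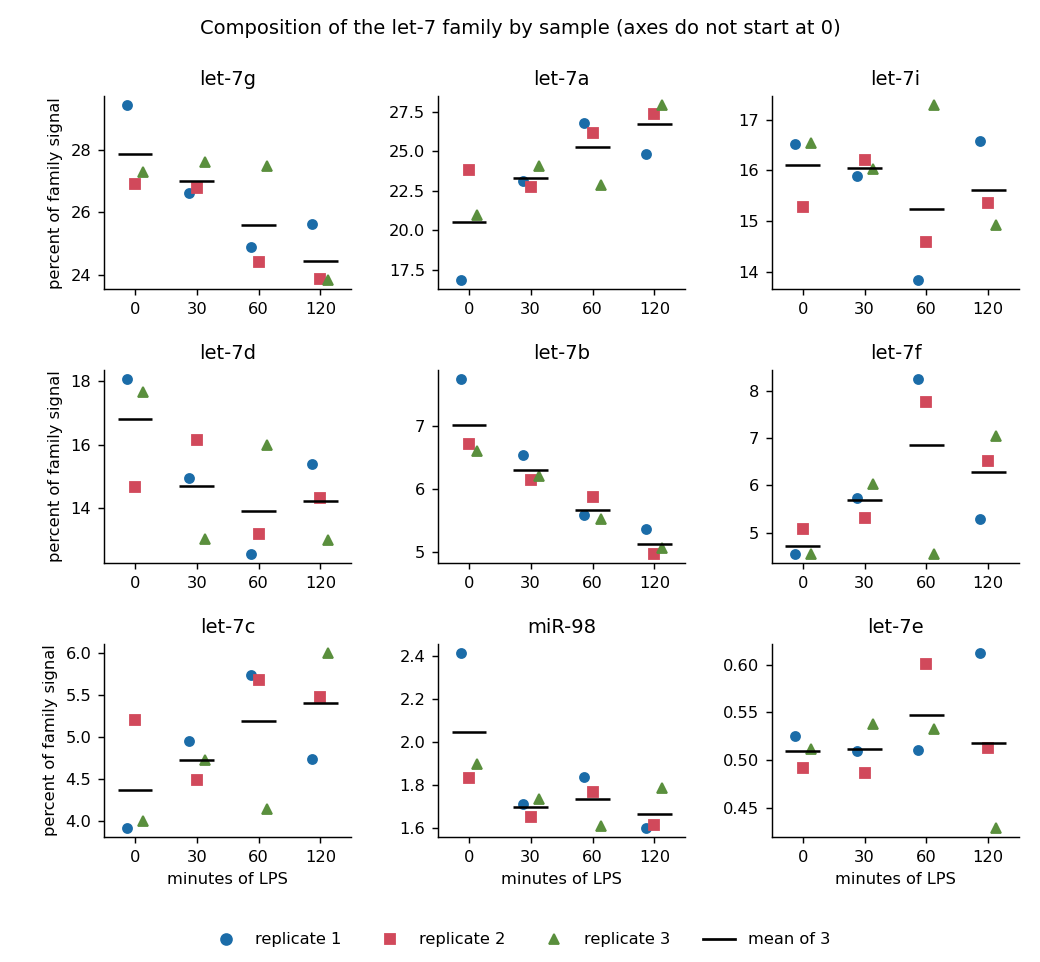
Percent of the summed signal of the 9 members (y axis, its range set per panel and not starting at 0) held by each member, by minutes of LPS (x axis), with 1 symbol per sample and a bar at the mean of 3. Let-7b steps down from 6.61% or more at 0 min to 5.38% or less at 120 min, and let-7f at 60 min has samples at 8.25% and 7.75% and another at 4.55%.

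No other member passed. Let-7g held 27.9% ± 1.36 of the family at 0 min and 24.4% ± 1.02 at 120 min, with all 3 samples at 120 min (23.8% to 25.6%) below all 3 at 0 min (26.9% to 29.4%), and its change of -0.18 ± 0.14 did not pass. MiR-98 went from 2.05% ± 0.318 to 1.70% ± 0.044 at 30 min, 1.74% ± 0.116 at 60 min and 1.67% ± 0.103 at 120 min, and its log2 differences of -0.25 ± 0.14, -0.24 ± 0.14 and -0.28 ± 0.14 did not pass. Let-7d (16.8% ± 1.86 and 14.2% ± 1.20), let-7i (16.1% ± 0.72 and 15.6% ± 0.863) and let-7e (0.509% ± 0.0169 and 0.518% ± 0.0921) overlapped between 0 and 120 min.

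Relative to the family mean, 3 of 9 members (let-7b, let-7g and miR-98) had all 120 min samples below all 0 min samples, against 15.1% of all tested miRNAs, and 2 of 9 (let-7a and let-7f) had them above, against 22.3%. At 60 min let-7b and miR-98 lay wholly below 0 min, against 4.22% of all tested, and let-7a wholly above, against 27.7%. For let-7a this rested on 1.861 in 60 min replicate 3 against 1.857 in 0 min replicate 2 (counting errors 1.00% and 0.90%). For miR-98 it rested on -1.876 in 60 min replicate 1 against -1.842 in 0 min replicate 2 (3.16% and 3.24%). As shares of the family's signal, let-7a and miR-98 overlapped between 0 and 60 min. At 30 min let-7b and miR-98 again lay wholly below, against 3.01%, and let-7f wholly above, against 23.5%. These shares are not like for like, because the members were centred on their own mean and the other miRNAs were not. No member passed the limma test at 30 min (12% of all tested passed) or at 60 min (22.9% passed), and 0 and 2 of 9 members had an unadjusted p under 0.05, against 28.3% and 43.4% of all.

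**Figure D3:**
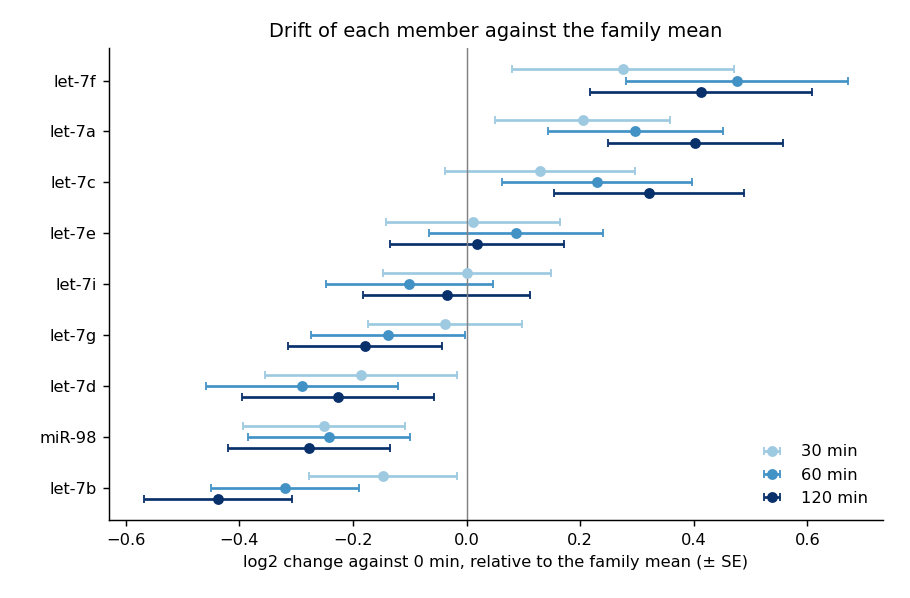
Log2 change against 0 min of each member relative to the mean log2 signal of the 9 members (x axis), with the standard error from limma as bars and 1 colour per time point. At 120 min the changes run from -0.44 for let-7b to 0.41 for let-7f, and let-7b at 120 min is the 1 change that passed.

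Ratios between pairs of members need no centring, and 13 of all 36 pairs had no overlap between 0 and 120 min. The 36 pairs share members, so they are not independent, and pairs of other tested miRNAs were not counted. The 13 of 36 therefore has no background to be set against and cannot show how widely the family drifted. The pairs given here were picked from members already seen to move in opposite directions, so they restate that drift. The ratio of let-7a to let-7b was 2.17, 3.55 and 3.17 at 0 min, 3.53, 3.70 and 3.88 at 30 min, 4.79, 4.44 and 4.13 at 60 min, and 4.61, 5.51 and 5.51 at 120 min. All 60 and 120 min samples lay above all 0 and 30 min samples. The ratio of let-7a to let-7g was 0.572, 0.886 and 0.767 at 0 min and 0.969, 1.15 and 1.17 at 120 min, without overlap, and let-7a was below let-7g in 3 of 3 samples at 0 min and above it in 2 of 3 at 120 min.

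Nearness in sequence did not go with a steady ratio in all pairs. The ratio of let-7a to let-7c, which differ by 1 base, was 4.71 ± 0.483 at 0 min and 4.96 ± 0.296 at 120 min. The ratio of let-7a to let-7f, also 1 base apart, was 4.33 ± 0.549 and 4.29 ± 0.371 at these times. In the 60 min samples it was 3.25, 3.37 and 5.03, so it was not steady throughout. For let-7a and let-7e, again 1 base apart, the ratio was 40.5 ± 8.23 at 0 min and 53.05 ± 12.3 at 120 min, with overlap. Let-7b and let-7c differ by 1 base and have neighbouring hairpins on chromosome 15. Their ratio went from 1.64 ± 0.345 at 0 min to 0.963 ± 0.153 at 120 min, without overlap. The steadiest pair of all was let-7g and let-7i, with 2 base differences and hairpins on different chromosomes (SD of the log2 ratio over 12 samples 0.07). Even so, its ratio was 1.65 to 1.78 at 0 min and 1.54 to 1.60 at 120 min, without overlap. The median SD of the log2 ratio was 0.22 for the 4 pairs that differ by 1 base, 0.32 for the 10 pairs with 2 differences, 0.22 for the 11 with 3 and 0.19 for the 9 with 4. It was 0.36 for the 5 pairs with neighbouring hairpins and 0.22 for the other 31. Each of the 5 pairs includes let-7a, let-7c or let-7f, which also come from a hairpin elsewhere. These medians therefore cannot show whether neighbouring hairpins go with less steady ratios.

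**Figure D4:**
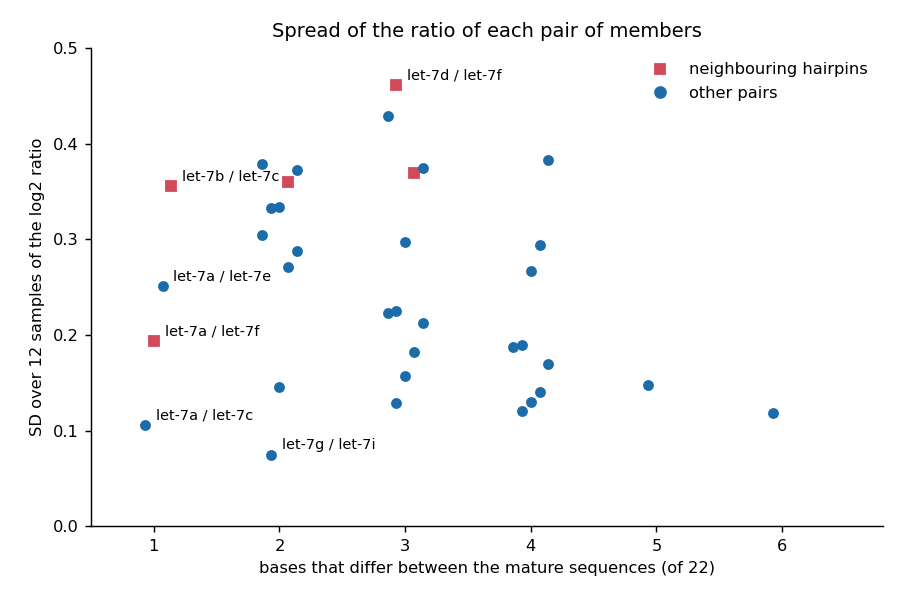
Standard deviation over the 12 samples of the log2 ratio of each pair of members (y axis) against the number of bases that differ between their mature sequences (x axis, points shifted sideways for legibility), with squares for pairs whose hairpins are neighbours. Pairs that differ by 1 base span from 0.11 for let-7a and let-7c to 0.36 for let-7b and let-7c.

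The 3 members with the highest changes against the family mean at 120 min, let-7a, let-7c and let-7f, are the 3 that are encoded by 2 hairpins. These 3 members also differ from each other by at most 2 bases. None of them passed the limma test at 120 min described above, and they were ranked on these same data. A link between hairpin number and change was not tested. The members with 1 hairpin had changes from -0.44 for let-7b to 0.02 for let-7e. Hairpins of both groups share clusters, since let-7d lies beside Mirlet7f-1 and Mirlet7a-1, and let-7b beside Mirlet7c-2.

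The miRNAs made from the same precursor clusters as let-7e, let-7c-1 and let-7a-2 belong to the miR-99/100 and miR-125 families. MiR-99b and miR-125a-5p, which flank let-7e, had signals of 138 ± 39.4 and 925 ± 283 at 0 min and 249.8 ± 44.8 and 1687 ± 627 at 120 min. Neither passed on the deposited scale (0.88 ± 0.38 and 0.85 ± 0.38, adjusted p = 0.0787 and 0.082), and both were higher relative to the let-7 mean (0.49 ± 0.17 and 0.46 ± 0.16, limma adjusted p = 0.0426 and 0.042). Let-7e itself had 0.02 ± 0.15 there. MiR-125b-5p had 650.5 ± 123 and 1213 ± 379 (0.48 ± 0.19 relative to the let-7 mean, adjusted p = 0.062), miR-100 90.0 ± 47.6 and 122 ± 24.0, and miR-99a 1141 ± 402 and 1168 ± 405. Thus 0 of the 5 passed on the deposited scale at 120 min, where 21.7% of all tested miRNAs did. Relative to the let-7 mean 2 of 5 passed as higher, against 22.9% of all.

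The miRNAs outside the family whose share of the summed signal followed the family's share most closely over the 12 samples were miR-22 (r = 0.74), miR-326 (0.63), miR-23a (0.58), miR-29a (0.57) and miR-139-5p (0.50). These are Pearson correlations of log2 shares over 12 samples that share 1 total per sample, and they are given as a description.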

How the data were processed

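The deposited table gives 1 signal per probe and sample. For the authors' normalization, the method was not given in the sources used here. Read from the values, the deposited signal is counts times 1 factor per sample, set so that 4 housekeeping mRNAs have a geometric mean of 9390.3, with entries under 20 counts or under a signal of 20 listed at 20. Between 20 and 2000, 100% of values were whole multiples of a sample's step within 0.1 of a step. Because floored entries are not whole, count tests were not run.

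Tests used limma 3.58.1 (R 4.3.3) on log2(signal + 1) (1 mean per time point, 12 samples, two-sided, Benjamini-Hochberg over all tested miRNAs). Of 566 mouse miRNAs, 166 had a mean above 30.5 and were tested; that limit is 2 SD above the average of the 8 negative controls, whose values are unscaled counts. On the deposited scale limma estimated 1 variance for all miRNAs, so p-values there rest on residuals pooled across miRNAs that are not independent. The code was tested on simulated data. Nothing says whether replicates were separate thaws, so p-values measure only the spread between these samples. The members, lists and named miRNAs (the 9 members, seed sharers, cluster partners, markers and the 5 most like miRNAs) were chosen with earlier results of these data known. Sequences and hairpin positions are RefSeq's for GRCm38.p6.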

Additional observations from a re-analysis of the deposited data

How the results depend on the processing

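On the deposited scale no member passed at any time, and this held with a pseudocount of 10, no filter, a common floor of 45.3 and a trend with robust variance. In these settings 19.9%, 4.24%, 9.04% and 21.7% of all tested miRNAs passed at 120 min. Dividing by the 100 most abundant miRNAs gave 5 members past the threshold at 60 min and 4 at 120 min, all lower; median-of-ratios scaling gave 4 and 1, all lower (13.9% and 18.1% of all tested miRNAs were lower); ligation control scaling gave 8 at 30 min, 6 at 60 min and 4 at 120 min, all lower. Top-100 scaling gave 3 and 1 with 0 min replicate 1 left out, a setting added after seeing the data. Leaving out single samples gave 0 to 0 at 30 min, 0 to 1 at 60 min and 0 to 3 at 120 min, all higher, while 0% to 3.61%, 4.22% to 24.7% and 9.64% to 46.4% of all tested miRNAs passed. The replicate block gave 2 (let-7a and let-7f, higher) at 120 min, where 36.7% of all were higher, and changed no other count. The labels do not say that a number marks a shared culture or day. The correlations of deviations of same-numbered samples ran from -0.38 to 0.35, with 5 of 18 over 0.1. Those of differently numbered samples ran from -0.39 to 0.37, with 12 of 36 over 0.1. The block was therefore kept as an alternative.

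Signs at 120 min on the deposited scale turned with the scaling. Under top-100, ligation control and median-of-ratios scaling, let-7d had -0.47, -0.60 and -0.34, let-7e -0.23, -0.35 and -0.092, let-7g -0.43, -0.55 and -0.29, let-7i -0.28, -0.41 and -0.15, and miR-98 -0.52, -0.65 and -0.39. Top-100 scaling without 0 min replicate 1 gave -0.39, -0.18, -0.36, -0.24 and -0.37 for the same 5, and ligation control scaling gave let-7c -0.050. Leaving out single samples moved let-7b from -0.36 to 0.32, let-7d from -0.13 to 0.51, let-7g from -0.073 to 0.54 and miR-98 from -0.21 to 0.53.

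Relative to the family mean, 1 member passed at 120 min. The count was 0 when centred on the median (19.9% of all tested passed) or with no filter (1.94% of 566). With trend and robust variance it was 2 (let-7a higher, let-7b lower), where 35.5% of all passed. It was 0 with that variance and 0 min replicate 1 left out (17.5% of all), also chosen after seeing the data. It ran from 0 to 2 over single samples left out, when 14.5% to 41.6% of all passed. At 60 min it was 1 (let-7f) with trend and robust variance, where 27.7% of all passed. Over single samples left out it was 0 to 1 at 60 min, when 12.7% to 45.8% of all passed. Let-7e ran from -0.11 to 0.15 over single samples, and centred on the median let-7i had 0.11 and let-7b at 30 min 0.00.

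The family's share at 0, 30, 60 and 120 min was 31.5%, 28.0%, 27.1% and 29.6% without miR-720 and the miR-20a and miR-20b probe in the denominator. In counts less the mean negative control it was 24.4% at 30 min and 26.4% at 120 min, and among tested miRNAs 26.4% at 120 min. Leaving out single samples gave 25.0% to 27.3%, 22.9% to 23.9%, 22.3% to 23.4% and 25.0% to 25.9%. The cause of these changes was not tested. Count tests on recovered counts were planned and not run, because floored entries are not whole counts.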
